A study of Mus musculus with 6 samples.

Results

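The 10 genes described here make, break down and sense sphingosine 1-phosphate (S1P), or join sphingoid bases to fatty acids to form ceramide. They are the receptor genes S1pr1, S1pr2 and S1pr3, the kinase genes Sphk1 and Sphk2, the lyase gene Sgpl1 and the ceramide synthase genes Cers2, Cers4, Cers5 and Cers6. They were chosen by name, with earlier results of this comparison in view, among them the low S1pr2 in the siID4 libraries. Their differences between the arms are therefore given as a description, with no p-value. All 10 were found among the 25655 genes of the table, and all 10 were among the 13941 genes tested.

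Gene expression was measured by RNA sequencing in Comma-Dβ, an established mouse mammary epithelial cell line, at passage 29. Cells of the siID4 arm were transfected with siRNAs to Id4 (siGENOME SMARTpool), and those of the NT arm with a non-targeting control pool of another product line (ON-TARGETplus). Both were used at 20 nM with Dharmafect-4, and cells were harvested after 48 hours. Each arm held 3 libraries, which the design text calls biological replicates without saying what separated them, so the spread between libraries may be partly technical.

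S1P is formed when sphingosine kinases phosphorylate sphingosine, and it is cleaved for good by the lyase. Outside the cell it acts through G protein-coupled receptors, of which S1PR1 couples to Gi proteins alone, while S1PR2 and S1PR3 also couple to G12/13 proteins. Ceramide, the precursor of sphingosine and of the complex sphingolipids, is made by ceramide synthases that differ in the length of the fatty acid they attach. The pathway is known for its part in cell migration, endothelial barriers and the balance between growth and cell death.

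Library totals lay between 19216671 and 23095600 expected counts. Id4, the targeted gene, had 59.4, 62.2 and 48.2 counts-per-million units (CPM) in the siID4 libraries, against 135, 114 and 118 CPM in the NT libraries, with a log2 fold change of -1.11 (SE 0.10, edgeR adjusted p = 0.000865). All 7 epithelial markers were detected in every library, with summed levels of 2122 to 2470 CPM in siID4 and 2304 to 2636 CPM in NT. Of the 7, 3 were called at an adjusted p under 0.05, where 9.55% of all genes tested were. Their log2 fold changes were -0.25 for Epcam, 0.24 for Cdh1 and 0.27 for Trp63. With the replicate number as a block 6 of the 7 were called, where 36.1% of all genes were. Of the leukocyte markers, 4 of 5 averaged under 1 CPM and were at 0 in at least 1 library, and the summed level of the 5 was 2.04 to 2.63 CPM in siID4 and 2.16 to 2.51 CPM in NT. The 6 fibroblast markers, led by Col1a1, summed to 2225 to 2235 CPM in siID4 and 1456 to 1612 CPM in NT, with Lum and Thy1 under 1 CPM on average. Col1a1 alone averaged 1817.5 CPM in siID4 and 1170.6 CPM in NT, so the sum mostly follows this gene. Of the fibroblast markers, Pdgfra had a log2 fold change of -0.62, Col1a1 one of 0.63 and Pdgfrb one of 0.43. Dcn had one of -0.35 (SE 0.22) and Thy1 one of 1.08 (SE 0.36). Both were not called, but were with the replicate block. The fibroblast marker sum did not overlap between the arms, and its part in the results below was not tested. In bulk samples such as these, fewer cells of a type and less RNA per cell cannot be told apart.

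S1pr2, the receptor that couples most strongly to G12/13 proteins, had the lowest log2 fold change of the 10 genes. Its level was 17.8, 22.0 and 19.9 CPM in the siID4 libraries, against 39.9, 46.4 and 46.8 CPM in the NT libraries. Every siID4 library lay below every NT library, and the siID4 mean was 44.9% of the NT mean. The log2 fold change was -1.16 (SE 0.10), the 24th lowest of the 13941 genes tested. Between same-numbered libraries the log2 difference was -1.16, -1.08 and -1.23.

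S1pr1, the Gi-coupled receptor best known from endothelial cells and lymphocytes, differed in the other direction. It had 12.7, 13.9 and 13.9 CPM in the siID4 libraries, against 9.99, 9.56 and 8.80 CPM in the NT libraries. The arms did not overlap, and the siID4 mean was 1.43 times the NT mean. The log2 fold change was 0.52 (SE 0.10), with differences of 0.34, 0.54 and 0.65 between same-numbered libraries. All 5 endothelial markers measured (Pecam1, Cdh5, Kdr, Tek and Emcn) averaged under 1 CPM, with 3 of them at 0 in at least 1 library. Their sum was 1.23 to 1.49 CPM in siID4 and 0.470 to 0.748 CPM in NT, so that it was higher in every siID4 library, as S1pr1 was. Kdr, the only one with enough counts to be tested, had a log2 fold change of 1.35 (SE 0.41) and was not called. It was called with the replicate block, as were 36.1% of all genes, and in 1 of the 6 fits without a library. The part of these markers in the S1pr1 result was not tested.

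S1pr3, which couples to Gi, Gq and G12/13, had 13.4, 10.4 and 9.69 CPM in the siID4 libraries, against 11.9, 9.77 and 8.58 CPM in the NT libraries. The arms overlapped, and replicate 1 was the highest library in both. The log2 fold change was 0.15 (SE 0.16), and the difference between same-numbered libraries was 0.16, 0.09 and 0.17. The remaining receptor genes, S1pr4 of leukocytes and S1pr5, are named here after their values were seen. S1pr4 had 0 counts in all 6 libraries, which allows up to 0.130 to 0.156 CPM at 3 counts per library, and S1pr5 had at most 1 count in any library. These limits cover counting error only.

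**Figure D1:**
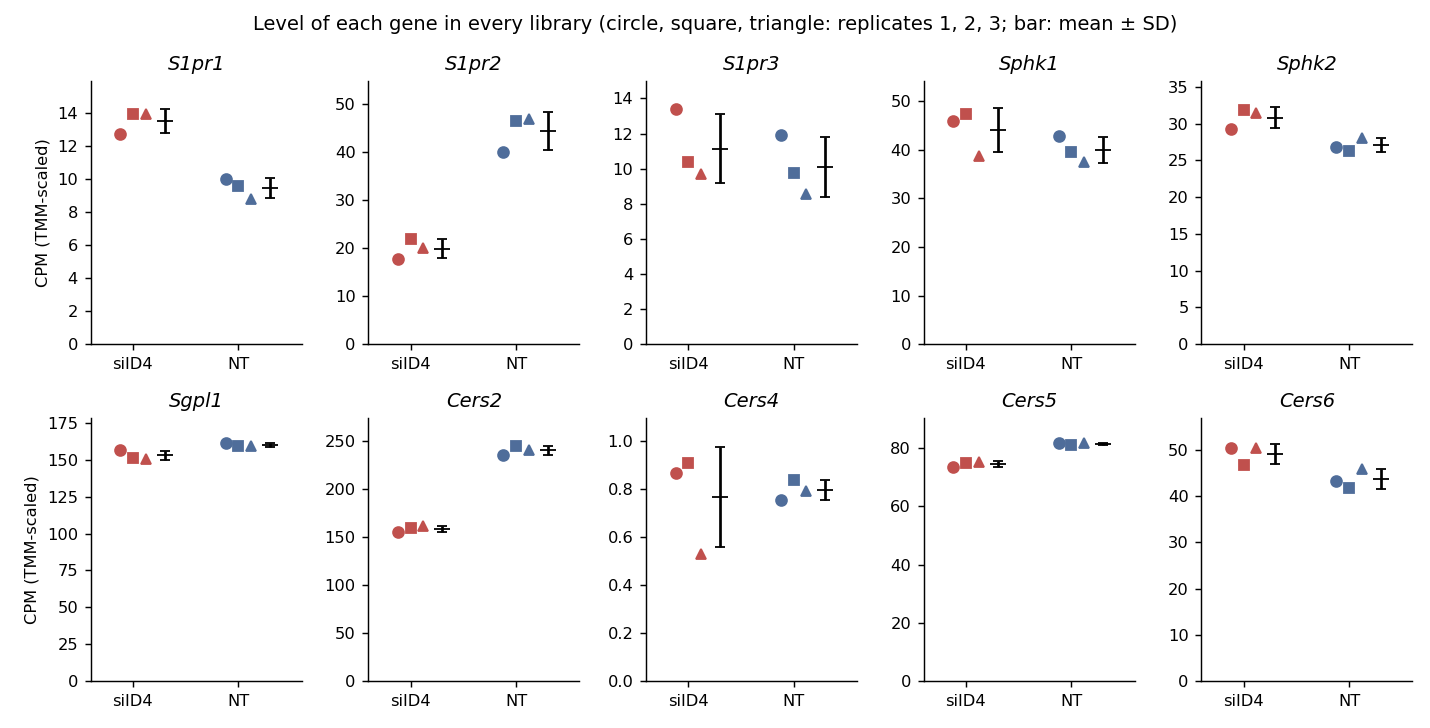
Level in TMM-scaled CPM (vertical axis, from 0) of each of the 10 genes in the 3 siID4 and 3 NT libraries, with symbols for the replicate number and the mean ± SD beside each arm. S1pr2 and Cers2 lie lower in all siID4 libraries and S1pr1 lies higher, while S1pr3, Sphk1 and Cers4 overlap between the arms.

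The makeup of the receptor mRNA pool differed between the arms. Set per transcript length, as transcripts-per-million units (TPM), S1pr2 made up 47.0%, 53.2% and 51.3% of the summed TPM of the 3 receptors in the siID4 libraries, against 70.5%, 75.6% and 77.6% in the NT libraries. S1pr1 made up 30.9%, 31.1% and 33.0% in the siID4 libraries, against 16.3%, 14.4% and 13.5% in the NT libraries. The share of S1pr3 was 17.8% ± 3.71 in siID4 and 10.7% ± 2.25 in NT (SD, n = 3 each), without overlap, although its own level overlapped between the arms. The summed receptor level was 27.1 ± 1.41 TPM in siID4 and 39.5 ± 1.78 TPM in NT. Shares within a library do not depend on how libraries are scaled to each other.

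The receptor genes are built alike, with a single coding exon in the longest coding transcript of each in GENCODE M21. On GRCm38, S1pr2 spans chr9:20962361-20976781 (minus strand), S1pr1 spans chr3:115710433-115715072 (minus strand) and S1pr3 spans chr13:51408639-51422797 (plus strand). No other annotated gene overlaps S1pr1 or S1pr2, and S1pr3 shares 45 exon bases with the opposite-strand lincRNA gene Gm32834.

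ID proteins are known to bind E proteins and keep them from the E-box, CANNTG, so the stretches before the starts of these genes are shown with their E-boxes. RefSeq start sites (GRCm38.p6) were matched for 9 of the 10 genes, all but S1pr1, with 15 windows of 250 bases before the start. An E-box stood in 9 of the 15 windows, and in 66.2% of all 32851 such windows. Among these 9, overlapping windows of Sphk1 hold the same E-boxes. The motif reads the same on both strands, and overlapping matches were counted. Stretches outside every GENCODE M21 exon are printed for S1pr2 and Cers2, the genes with the lowest log2 fold changes of the 10, and for the receptor gene S1pr3, whose arms overlapped. Capitals mark the E-boxes, and the strand is that of the gene.

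S1pr2, chr9:20976794-20977043, minus strand: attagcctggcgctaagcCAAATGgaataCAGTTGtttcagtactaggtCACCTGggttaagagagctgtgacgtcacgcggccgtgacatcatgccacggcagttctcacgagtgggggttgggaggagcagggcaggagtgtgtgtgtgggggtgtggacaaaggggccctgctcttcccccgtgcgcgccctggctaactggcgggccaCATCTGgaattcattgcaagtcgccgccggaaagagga

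S1pr3, chr13:51408368-51408617, plus strand: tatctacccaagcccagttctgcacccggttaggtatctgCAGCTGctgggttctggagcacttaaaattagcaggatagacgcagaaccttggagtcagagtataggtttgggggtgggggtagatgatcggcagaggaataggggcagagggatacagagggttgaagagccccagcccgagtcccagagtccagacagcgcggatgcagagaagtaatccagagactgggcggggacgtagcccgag

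Cers2, chr3:95318580-95318791, plus strand: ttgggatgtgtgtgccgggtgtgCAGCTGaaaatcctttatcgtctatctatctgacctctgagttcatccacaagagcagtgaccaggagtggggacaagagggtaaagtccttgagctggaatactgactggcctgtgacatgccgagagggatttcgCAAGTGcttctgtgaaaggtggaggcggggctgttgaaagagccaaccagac

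The S1pr2 window held 4 E-boxes, whose first bases lie 232, 221, 201 and 38 bases before the start, and 3.84% of all windows held at least as many. Of these, 1 is CACCTG, and CAGGTG or CACCTG stood in 17.2% of all windows. The S1pr3 window held 1 E-box, which reads CAGCTG, a form found in 13.0% of all windows. The Cers2 window is that of the downstream of 2 RefSeq start sites and held 3 E-boxes in all, of which 2 lie in the stretch printed. The window of the upstream Cers2 start held 1, which reads CACGTG, found in 6.02% of all windows. The windows of Cers5 and Cers6, whose log2 fold changes were small, held 3 E-boxes each. Those of Sgpl1 and Cers4 held 0, those of Sphk1 held 0 to 2, and those of Sphk2 held 0 or 1. A match describes the letters, not a site in use.

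The sphingosine kinases differed less between the arms. Sphk1, the mostly cytosolic kinase, had 46.0, 47.4 and 38.8 CPM in the siID4 libraries, against 42.8, 39.5 and 37.4 CPM in the NT libraries, and the arms overlapped through siID4 replicate 3. Its log2 fold change was 0.14 (SE 0.09). Sphk2, found in the nucleus and mitochondria as well, had 29.2, 31.8 and 31.4 CPM in the siID4 libraries, against 26.9, 26.3 and 28.1 CPM in the NT libraries. The siID4 libraries of Sphk2 all lay above the NT libraries, with a log2 fold change of 0.19 (SE 0.07). Sphk1 spans chr11:116530925-116536674 (plus strand) and shares 192 exon bases with the antisense gene Gm29292, which averaged 0.250 CPM in siID4 and 0.279 CPM in NT. Sphk2 spans chr7:45709467-45718002 (minus strand), where it shares 539 and 373 exon bases with the opposite-strand genes Dbp and Rpl18. Rpl18 had a log2 fold change of 0.03 (SE 0.06) and Dbp one of -0.25 (SE 0.18), and the strand setting of the counting is not given in the sources used here.

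Sgpl1 (chr10:61098642-61147703, minus strand), the lyase that ends the pathway, had 157, 152 and 151 CPM in the siID4 libraries, against 162, 160 and 160 CPM in the NT libraries. In TMM-scaled CPM the arms did not overlap, yet the siID4 mean was 95.5% of the NT mean and the log2 fold change only -0.07 (SE 0.04). In TPM the arms overlapped, at 78.6, 76.8 and 74.9 in the siID4 libraries, against 78.3, 77.8 and 77.0 in the NT libraries. Sphk1 made up 71.0% ± 2.64 of the summed kinase TPM in siID4 and 71.7% ± 1.86 in NT (SD, n = 3 each). The difference of the means was under the SD of either arm, while the share was lower in siID4 in each of the 3 same-numbered pairs, at 73.1%, 72.0% and 68.0% in the siID4 libraries, against 73.3%, 72.2% and 69.7% in the NT libraries. The ratio of Sgpl1 to the summed kinases in TPM was 1.09, 1.01 and 1.16 in the siID4 libraries, against 1.21, 1.28 and 1.30 in the NT libraries.

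Among the ceramide synthases, Cers2, which attaches very long chain fatty acids, had the lowest log2 fold change. Its level was 155, 159 and 161 CPM in the siID4 libraries, against 236, 245 and 241 CPM in the NT libraries. The libraries of an arm lay close together and the arms far apart, with a siID4 mean at 66.0% of the NT mean. The log2 fold change was -0.60 (SE 0.04), and it was -0.60, -0.62 and -0.58 between same-numbered libraries. Cers2 spans chr3:95314791-95323599 (plus strand) and shares 144 exon bases with the antisense gene 6330562C20Rik and 75 with Setdb1, both on the opposite strand. 6330562C20Rik averaged 0.824 CPM in siID4 and 0.903 CPM in NT. Setdb1 averaged 104 CPM in siID4 and 103 CPM in NT, with a log2 fold change of 0.02 (SE 0.05).

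Cers5 and Cers6, which both prefer palmitoyl chains, differed by little and in opposite directions. Cers5 had 73.5, 74.9 and 75.4 CPM in the siID4 libraries, against 81.6, 81.2 and 81.7 CPM in the NT libraries, a log2 fold change of -0.13 (SE 0.04). Cers6 had 50.5, 46.7 and 50.4 CPM in the siID4 libraries, against 43.3, 41.7 and 46.0 CPM in the NT libraries, a log2 fold change of 0.17 (SE 0.06). Cers5 spans chr15:99734881-99772885 (minus strand) and Cers6 spans chr2:68861441-69114282 (plus strand). Neither gene overlapped between the arms, though for Cers6 the gap between siID4 replicate 2 and NT replicate 3 was under 1 CPM. Cers4 (chr8:4493026-4531680, plus strand), which makes long chain ceramides, rested on 20, 20 and 12 counts in the siID4 libraries, against 15, 16 and 18 counts in the NT libraries. At this depth its log2 fold change of -0.05 (SE 0.29) gives no direction. Cers4 shares 886 exon bases with the pseudogene Vmn2r-ps89 and 214 with Gm36956, both on the opposite strand and both without counts here.

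The ceramide synthase pool was lower and less dominated by Cers2 in the siID4 libraries. The summed level of the 4 genes was 238 ± 3.07 TPM in siID4 and 310.03 ± 4.99 TPM in NT (SD, n = 3 each), a difference of -71.7 TPM, of which Cers2 alone gave -69.8 TPM. Cers2 made up 62.8%, 63.2% and 63.2% of the sum in the siID4 libraries, against 70.6%, 71.5% and 70.8% in the NT libraries. The share of Cers5 was 30.6% ± 0.129 in siID4 and 24.8% ± 0.369 in NT, and that of Cers6 was 6.08% ± 0.282 in siID4 and 4.01% ± 0.208 in NT. The share of Cers5 was thus higher in siID4 although its level in CPM was lower.

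**Figure D2:**
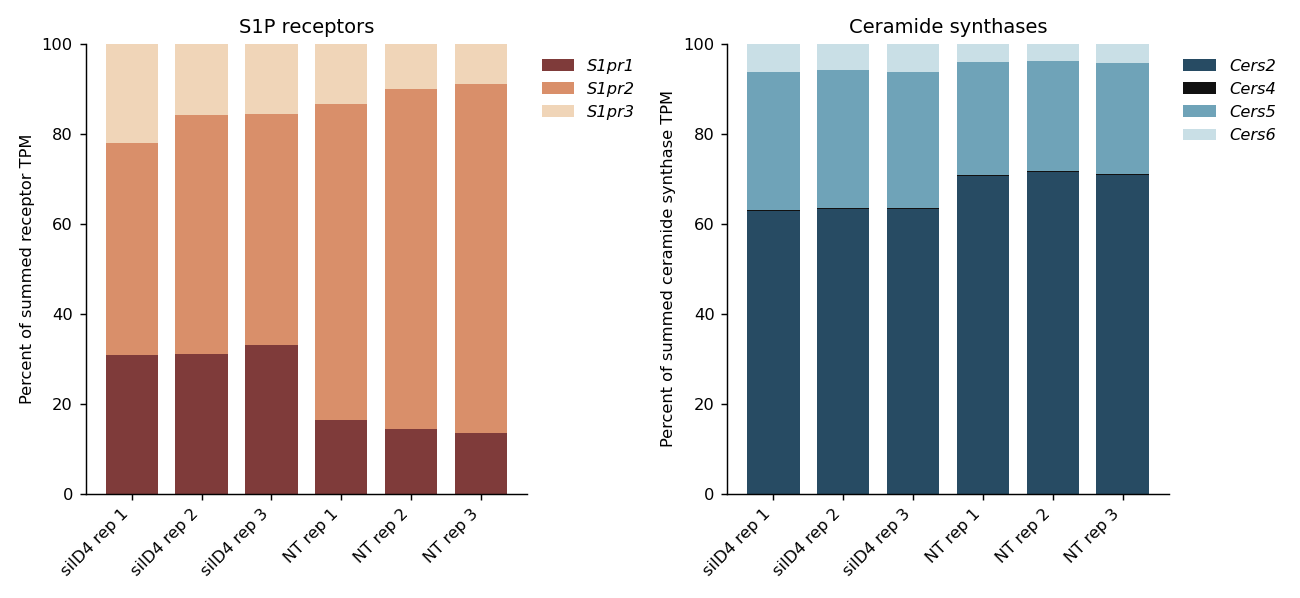
Percent of the summed TPM (vertical axis) taken by each S1P receptor gene (left) and each ceramide synthase gene (right) in every library, siID4 libraries first. S1pr2 takes 47.0% to 53.2% of the receptor sum in siID4 and 70.5% to 77.6% in NT, and Cers2 takes 62.8% to 63.2% of the synthase sum in siID4 and 70.6% to 71.5% in NT.

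Levels per length ran over more than 2 orders of magnitude. In the siID4 libraries Cers2 stood first at 150.3 ± 2.54 TPM, then Sgpl1 at 76.8 ± 1.89, Cers5 at 72.9 ± 1.03, Sphk1 at 50.5 ± 5.75, Sphk2 at 20.5 ± 0.982, Cers6 at 14.5 ± 0.511, S1pr2 at 13.7 ± 1.50, S1pr1 at 8.57 ± 0.449, S1pr3 at 4.81 ± 0.858 and Cers4 at 0.639 ± 0.179 TPM (SD, n = 3). In the NT libraries Cers2 stood at 220.07 ± 5.06 TPM, Sgpl1 at 77.7 ± 0.662, Cers5 at 76.9 ± 0.144, Sphk1 at 44.2 ± 3.00, S1pr2 at 29.5 ± 2.62, Sphk2 at 17.4 ± 0.520, Cers6 at 12.4 ± 0.556, S1pr1 at 5.80 ± 0.382, S1pr3 at 4.21 ± 0.712 and Cers4 at 0.639 ± 0.0362 TPM (SD, n = 3). By its mean, S1pr2 thus ranked below Sphk2 and Cers6 in siID4 and above both in NT, and the means of the other genes stood in the same order in both arms. Neighbours in these orders did not overlap in TPM, except Cers6 and S1pr2 in siID4 and Sgpl1 and Cers5 in NT.

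**Figure D3:**
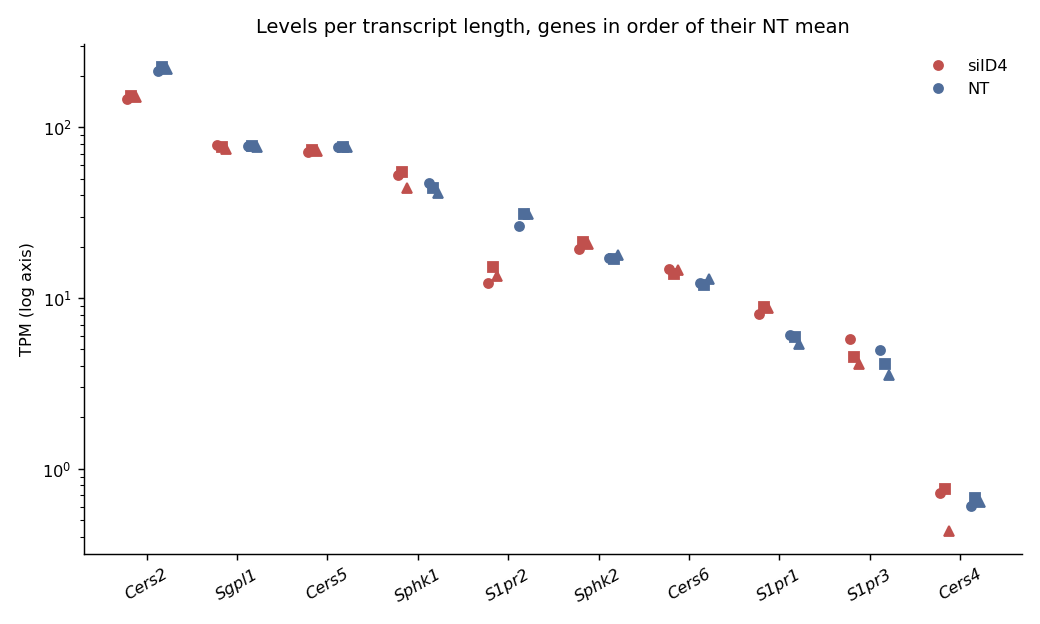
Level per transcript length in TPM (vertical axis, logarithmic) of the 10 genes in each library, siID4 left of NT, with genes in the order of their NT mean. S1pr2 lies between 12.3 and 15.2 TPM in siID4 and between 26.4 and 31.0 TPM in NT, and its mean ranks below those of Sphk2 and Cers6 in siID4, where its libraries overlap those of Cers6, and above both in NT.

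In the fit across all genes, 3 of the 10 genes were called at an adjusted p under 0.05 (S1pr1 higher, S1pr2 and Cers2 lower), where 9.55% of all genes tested were called, 4.62% as higher and 4.93% as lower. Over all genes that was 644 higher and 687 lower, and with library totals in place of TMM scaling 829 higher and 564 lower. The median log2 fold change was 0.05 over the 10 genes and 0.00079 over all genes tested. With the replicate number as a block, 7 of the 10 were called, the further ones being Sphk1, Sphk2, Cers5 and Cers6, where 36.1% of all genes were. The arms did not overlap in TMM-scaled CPM for 7 of the 10 genes, as for 30.9% of all genes tested. Sgpl1, among these, overlapped in TPM. Since the genes were chosen with this comparison known, these counts describe the choice and support nothing further. S1pr1 was not called without siID4 replicate 2, when its log2 fold change was 0.49, while S1pr2 and Cers2 were called in all 6 fits without a library.

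By the closeness of their centred log2 CPM over the 6 libraries, the genes most like S1pr2 were Ywhah, which encodes a 14-3-3 adaptor, Slc16a1, which encodes a lactate transporter, and Gchfr, which encodes a regulator of GTP cyclohydrolase. Their root mean square differences from S1pr2 were 0.11, 0.13 and 0.14 on the log2 scale. The genes most like S1pr1, at 0.044, 0.046 and 0.048, were Smpd5, Unc93b1, which encodes a chaperone of endosomal Toll-like receptors, and Serf1. Smpd5, itself annotated as a sphingomyelin phosphodiesterase, rested on 16, 17 and 18 counts in the siID4 libraries, against 10, 10 and 11 counts in the NT libraries. It was not called. Profiles were centred over both arms, so closeness includes the difference between the arms, by which S1pr2 and S1pr1 were picked. The log2 fold changes were -1.06 for Ywhah, -1.08 for Slc16a1 and -0.92 for Gchfr. They were 0.57 for Smpd5, 0.54 for Unc93b1 and 0.53 for Serf1. Closeness is thus a description only.

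Other genes of the pathway were tested from 9 groups listed by role, together 63 genes, of which 62 were in the table and 56 could be tested. Of these 56, 2 rose and 9 fell, or 19.6%, against 9.55% of all genes, and the other 45 did not pass. With library totals 3 rose and 7 fell. Their median log2 fold change was -0.01, against 0.00079 over all genes tested. With the replicate block 12 rose and 14 fell, 26 of the 56 in all, where 36.1% of all genes were called. Without siID4 replicate 2, 3 of the 56 were called, with 445 of 14168 genes tested in that fit. There were 4 without NT replicate 2, with 631 of 14200 genes, and 4 without siID4 replicate 3, with 966 of 14147 genes. The groups were chosen with earlier results of these data known, so these counts and shares are a description and support nothing further.

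Around the receptors, Lpar1, a receptor for the related lipid lysophosphatidic acid, fell among 3 receptor genes tested. It averaged 26.0 ± 1.74 CPM in siID4 and 33.5 ± 1.85 CPM in NT (log2 fold change -0.36, SE 0.08, edgeR adjusted p = 0.0198). Of 10 genes for G proteins and exchange factors downstream of the receptors, 1 rose and 1 fell. Gnai1, which encodes a Gi subunit, averaged 9.09 ± 0.501 CPM in siID4 and 5.78 ± 1.06 CPM in NT (0.65, SE 0.14, edgeR adjusted p = 0.0231). Gna13, which encodes the G13 subunit to which S1PR2 couples, averaged 97.3 ± 6.20 CPM in siID4 and 116.8 ± 7.07 CPM in NT (-0.26, SE 0.06, edgeR adjusted p = 0.0335). Lpar1 lost its call without siID4 replicate 2, siID4 replicate 3 or NT replicate 2 (adjusted p up to 0.102). Gnai1 lost it without siID4 replicate 1, 2 or 3 or NT replicate 2 (up to 0.0741), and Gna13 without siID4 replicates 2 or 3 or NT replicates 1 or 2 (up to 0.127) and with library totals in place of TMM (0.0543).

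Among 4 genes tested for export of S1P, 1 rose and 1 fell. Abca1, a lipid exporter best known for cholesterol, had 32.1, 26.4 and 22.6 CPM in the siID4 libraries, against 15.2, 14.3 and 11.3 CPM in the NT libraries. Its arms did not overlap, and its log2 fold change of 1.00 (SE 0.15, edgeR adjusted p = 0.00532) was the highest of the 56. Abcc1, a multidrug transporter that can carry S1P, averaged 150.9 ± 6.47 CPM in siID4 and 174 ± 2.40 CPM in NT (-0.21, SE 0.05, edgeR adjusted p = 0.0255). Abca1 was called in all 6 fits without a library, and Abcc1 was not called without siID4 replicates 2 or 3 or NT replicates 2 or 3 (adjusted p up to 0.122). Spns2, of the same group, averaged 156 ± 30.1 CPM in siID4 and 170 ± 25.1 CPM in NT, with overlapping arms (-0.13, SE 0.15). Mfsd2b averaged 1.19 CPM in siID4 and 1.05 CPM in NT (0.19, SE 0.27). Neither was called, but Spns2 was with the replicate block, as were 36.1% of all genes.

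Of 6 genes that dephosphorylate S1P and related lipids or act after the lyase, 2 fell and the others did not pass. Plpp2 averaged 104 ± 3.36 CPM in siID4 and 127 ± 3.02 CPM in NT, and Plpp3 averaged 33.9 ± 3.10 CPM in siID4 and 46.3 ± 6.16 CPM in NT (SD, n = 3 each). These lipid phosphate phosphatases of the cell surface, listed as Ppap2c and Ppap2b in the table, had log2 fold changes of -0.29 (SE 0.05, edgeR adjusted p = 0.00611) and -0.45 (SE 0.10, edgeR adjusted p = 0.0297). Plpp2 was called in all 6 fits without a library. Plpp3 was not called without siID4 replicates 2 or 3 or NT replicate 2 (adjusted p up to 0.134).

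In each of the 4 groups for the synthesis of ceramide and its conversion, 1 gene fell and the others did not pass. The median log2 fold change was -0.03 for sphingoid base synthesis and -0.0022 for the other ceramide synthases and desaturases. It was 0.14 for the ceramidases and 0.02 for sphingomyelin and ceramide transfer, against 0.00079 over all genes tested. Sptssa, a small subunit of serine palmitoyltransferase, the enzyme that starts the pathway, fell among 7 genes tested (-0.37, SE 0.06, edgeR adjusted p = 0.00801), and Degs1, the desaturase that completes ceramide, among 3 (-0.21, SE 0.05, edgeR adjusted p = 0.0413). Acer3, an alkaline ceramidase, fell among 4 genes tested (-0.40, SE 0.08, edgeR adjusted p = 0.0179). Sptssa averaged 29.0 ± 0.696 CPM in siID4 and 37.6 ± 1.38 CPM in NT, Degs1 126 ± 4.84 CPM in siID4 and 146 ± 7.60 CPM in NT, and Acer3 23.3 ± 2.14 CPM in siID4 and 30.8 ± 1.29 CPM in NT (SD, n = 3 each). Sgms1, which turns ceramide into sphingomyelin, fell among 9, to 24.0, 24.5 and 24.1 CPM in the siID4 libraries, against 34.8, 33.7 and 33.1 CPM in the NT libraries (-0.48, SE 0.06, edgeR adjusted p = 0.00289). Sgms1 was called in all 6 fits without a library and Sptssa in 5, with an adjusted p of 0.0508 without siID4 replicate 2. Acer3 was not called without siID4 replicates 2 or 3 or NT replicate 2 (adjusted p up to 0.0949). Degs1 was called in 0 of the 6 fits (adjusted p up to 0.183) and not with library totals (0.0556).

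Of 10 glycosphingolipid genes, 0 passed in the edgeR fit. Psap, which encodes the saposin precursor, averaged 946 ± 15.4 CPM in siID4 and 882 ± 25.5 CPM in NT (log2 fold change 0.10, SE 0.04, edgeR adjusted p = 0.165). At an unadjusted p under 0.05, 5 of the 10 had a positive and 1 a negative log2 fold change. The share of all genes at that threshold was not counted, so this gives no comparison with the background. DESeq2 called 1 in each direction, in a fit that called 1495 of 13941 genes. Limma-voom called 0 of the 10, and 1332 of 13941 genes over all. With the replicate block 5 rose and 1 fell, in a fit that called 36.1% of all genes.

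**Figure D4:**
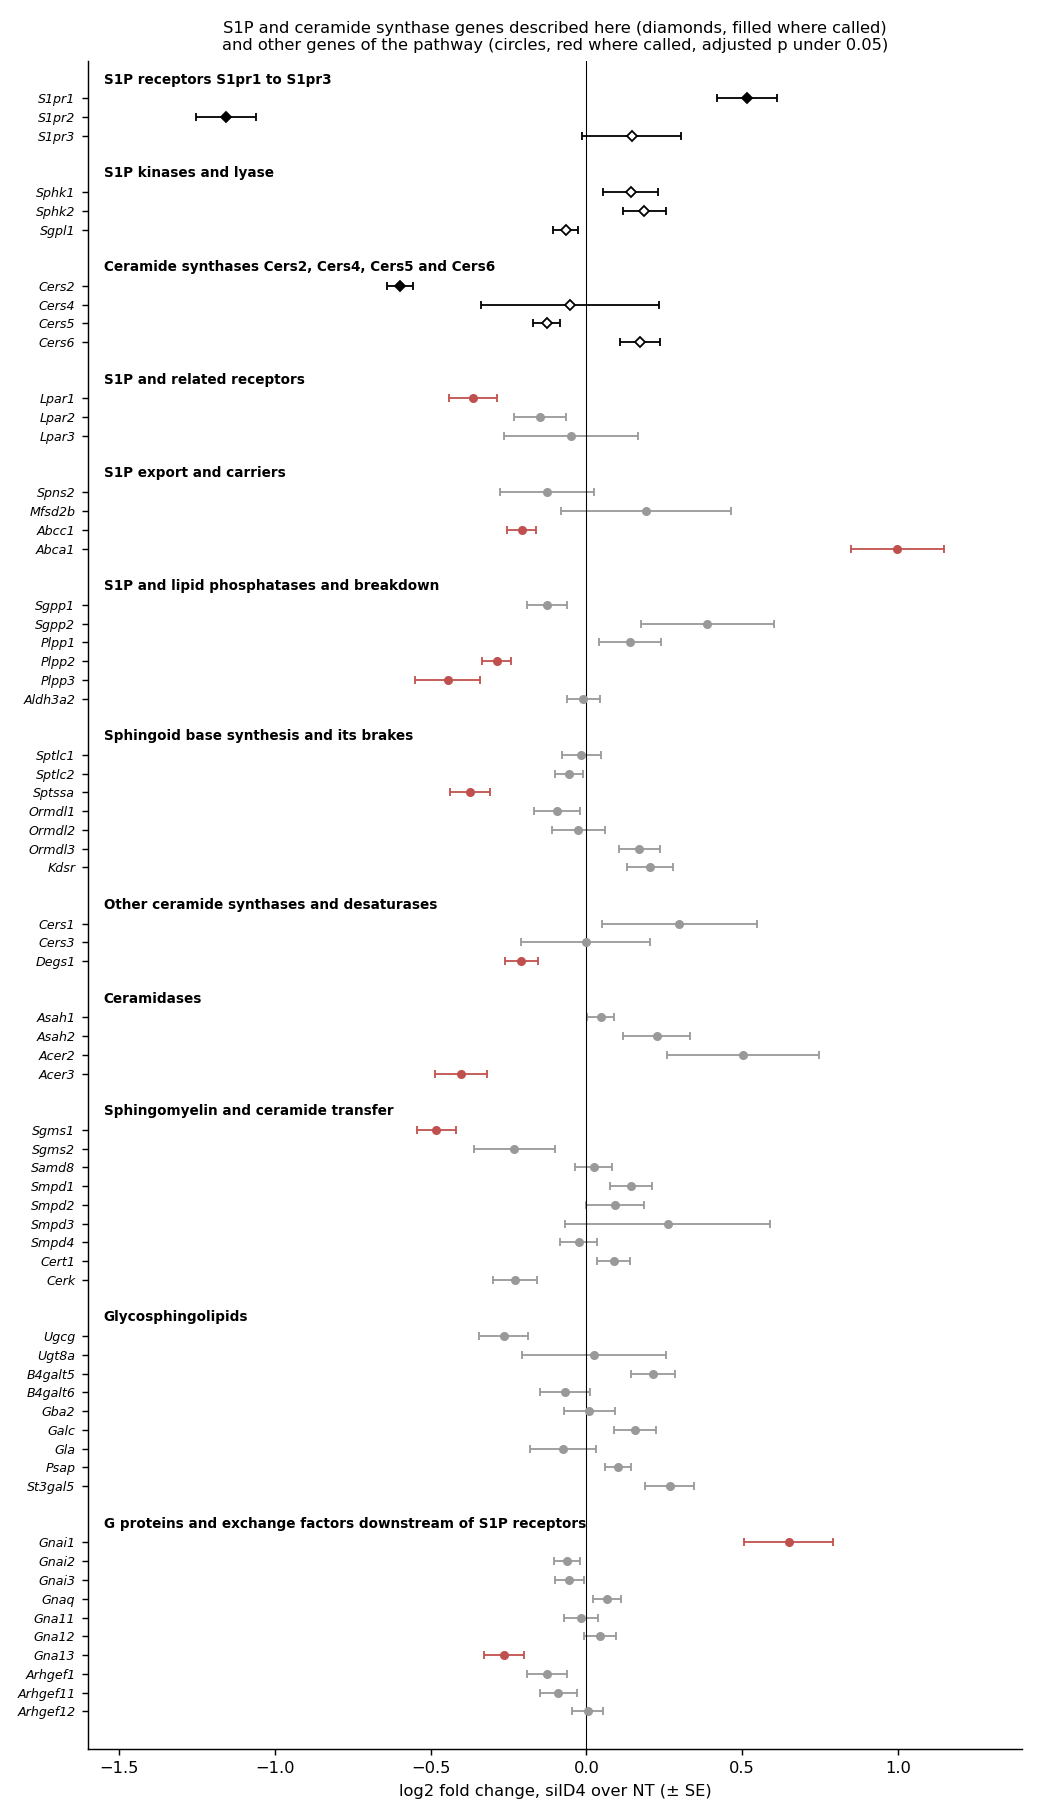
Log2 fold change of siID4 over NT with its SE (horizontal axis) for the 10 genes described (diamonds, filled where called in the fit over all genes) and 55 other pathway genes (circles, red where called). Of these 55, 44 were not called, Abca1 lies highest at 1.00, and S1pr2 lies lowest of all genes shown at -1.16.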

How the data were processed

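The authors deposited expected counts per gene with a gene length column, one column per library. Tools listed in the submitters' processing notes are cutadapt, STAR and RSEM, with the build mm10. The sources used here give no versions, annotation release, strand setting or rule for the filtering named in the deposit. All 60 values of the 10 genes were whole numbers (tolerance 0), and the other values were rounded before testing. Per the file headers the length is a gene length in bases, and it was used with the counts to compute TPM.

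Genes with enough counts by filterByExpr were fitted with edgeR 4.0.16 in R 4.3.3 (TMM scaling, robust quasi-likelihood test, group as the only term). Calls were made at a Benjamini-Hochberg adjusted p under 0.05 over all 13941 genes tested. CPM are scaled by TMM, and each SE is the log2 fold change divided by the square root of its F statistic. Profiles and differences between same-numbered libraries used log2 CPM with a prior count of 2.

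Same-numbered libraries deviated together from their arm means (correlation across genes 0.50, 0.12 and 0.42, weakest for number 2). Between libraries of other numbers the correlation ran from -0.46 to 0.02, so number 2 stood only a little above these. On this evidence, from these same data, the numbers were taken as pairs for the differences between same-numbered libraries and for the replicate block. The main edgeR fit did not use them, so calls given without mention of the block are unpaired. What joins libraries of one number is not stated in the labels. Libraries of an arm differed beyond counting noise (chi-square per gene 5.10 to 13.8).

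The genes, the 9 pathway groups and the 4 marker lists were chosen with earlier results of these data known. Of each pathway group, up to 4 called genes with the smallest adjusted p are named, or the 2 with the highest mean TPM where none was called. Of these, 1 gene is not reported here. For the genes of lowest and highest log2 fold change, the 3 closest profiles are named. Alternatives were DESeq2 1.42.0, limma-voom (limma 3.58.1), other scalings and filters, the replicate block, and leaving out each library. Positions and overlaps came from GENCODE M21 (GRCm38, which UCSC names mm10).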

Additional observations from a re-analysis of the deposited data

How the results depend on the processing

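With the replicate number as a block (replicate block), 5038 genes were called in all, 7 of the 10 genes described and 26 of the 56 pathway genes, against 1331, 3 and 11 without it. Without 1 library the count over all genes ran between 445 and 1351, that of the 10 genes between 2 and 3, and that of the pathway genes between 3 and 10. Over all genes 445 were called without siID4 replicate 2, 631 without NT replicate 2 and 884 without siID4 replicate 1. The log2 fold change of S1pr2 stayed between -1.23 and -1.08 over 14 alternatives, that of Cers2 between -0.61 and -0.57, and that of S1pr1 between 0.46 and 0.56. With library totals in place of TMM scaling, Sgpl1 moved to -0.04, Cers5 to -0.10 and Cers2 to -0.57. Each of these moves was at least the pooled SD of log2 CPM within the arms. S1pr3 and Cers4, which were not called, changed sign in 1 alternative each, S1pr3 to -0.01 without siID4 replicate 1 and Cers4 to 0.16 without siID4 replicate 3. Cers4 averaged under 5 CPM and has no value at that minimum. Counts in the other scalings, filters and tools were within 1.5 times those of the edgeR fit. The cause of the lower counts without a library was not tested, and these fits hold fewer samples.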
